A study of Mus musculus with 6 samples.

Results

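Car9, Ndrg1, Bhlhe40, Mxi1, Ankrd37, Higd1a and Stc2 are target genes of the hypoxia-inducible factors (HIF) whose products lie outside glycolysis and angiogenesis. They were chosen by gene symbol, with earlier results of these data known. All 7 were found among the 13595 genes of the deposited table. RNA was sequenced from primary cells positive for CD31, an endothelial surface protein, that were isolated from livers of C57BL6/J mice aged 4 weeks and cultured. All 6 libraries, 3 labelled male and 3 labelled female (replicates 4, 5 and 6 of each), came from cells given 100 µM indoxyl sulfate, a tryptophan metabolite that activates the aryl hydrocarbon receptor, and 6 hours of hypoxia and nutrient deprivation. No genetic alteration is named in the labels. The series asks how the sexes differ in this setting, and the single contrast here is that of the sex labels, because the 6 libraries share the treatment. The labels do not say whether a replicate is a mouse, a pool of mice, an isolation or a well, so that p-values measure the spread between these libraries, which may be technical.

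HIF is a transcription factor made of an oxygen-regulated alpha subunit and the stable partner ARNT. In normal oxygen, prolyl hydroxylases mark the alpha subunit, the VHL protein binds it and it is degraded. In low oxygen it accumulates and binds the hypoxia response element, whose core is ACGTG or GCGTG. Beside glucose metabolism and vessel growth, its targets cover the control of pH (Car9), transcriptional repression (Bhlhe40, Mxi1), mitochondrial respiration (Higd1a), secreted signals (Stc2) and stress adaptation (Ndrg1). Ankrd37 encodes an ankyrin-repeat protein whose gene is commonly induced by HIF.

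The core motif was searched in promoter windows from RefSeq (GRCm38.p6), which run from 250 bases before to 50 bases after a transcription start. Windows were present for 5 of the 7 genes, Car9, Ankrd37, Higd1a, Mxi1 and Stc2, with 7 windows in all because Mxi1 has 3 starts. ACGTG or GCGTG, on either strand and with overlapping matches counted, occurred in 6 of these 7 windows and for each of the 5 genes. The same letters occurred in 43.8% of all 32851 windows, ACGTG in 19.6% and GCGTG in 32.4%. Of 37 further HIF targets in the table, described later, 31 matched windows by symbol, and 28 of their 41 windows held a core, in 26 of the 31 genes. A match describes the letters of the window and is not evidence of binding. The stretches of 29 bases around the upstream match nearest to each start are shown because the 5 genes share this motif, with every match in capitals, read from the gene's own strand, so that a match on the opposite strand shows its reverse complement.
Car9: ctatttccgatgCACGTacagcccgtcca
Ankrd37: gctgcacatgtcagtgtttgggtACGTGa
Higd1a: tctagcctGCGTGCGTGgcgttcgcggag
Mxi1, before the second start: cctcggcacccgACGTGcactggcggggg
Mxi1, before the third start: tgcggatgatcaACGTGcagcgcctgctg
Stc2: cacCACGCaaacGCGTGgccgccgccagg
The Car9 stretch is chr4:43506996-43507024 on the plus strand, and its core starts 18 bases before the start. That of Ankrd37 is chr8:45999851-45999879 on the minus strand, with the core 6 bases before the start. That of Higd1a is chr9:121857846-121857874 on the minus strand and holds a tandem pair of cores, the nearer of which begins 66 bases before the start. The Mxi1 stretches, on the plus strand, are chr19:53329335-53329363, with its core 66 bases before the second listed start, and chr19:53329658-53329686, with its core 25 bases before the third. The window of the first Mxi1 start held no match. That of Stc2, chr11:31370276-31370304 on the minus strand, lies farthest out, with cores on both strands and the nearer one 231 bases before the start. In the GENCODE M21 annotation, all 29 bases of the Car9 and Higd1a stretches and of the Mxi1 stretch before the third start, and 17 of the Ankrd37 stretch, also fall in annotated exons, and the Mxi1 stretch before the second start and that of Stc2 fall in none.

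The male-labelled libraries held 27811890 to 31189363 reads, and the female-labelled ones held 22303270 to 25329421. Xist, the RNA of X inactivation, followed the labels, with normalized read counts from 234 to 324 in the female-labelled libraries and from 0.124 to 0.458 in the male-labelled ones. The Y-linked genes Ddx3y, Uty, Eif2s3y and Kdm5d went against the label, since their means in the female-labelled libraries were 91.5%, 89.6%, 51.3% and 54.8% of the male means. This holds for each of the 3 female-labelled libraries, so no comparison without them can be made, and every direction here rests on the labels. Male 4 stood apart from male 5 and male 6 in several of the genes described here. The contrast between the labels was broad. Of 12568 genes tested with limma, 69.3% passed an adjusted p of 0.05, with 34.6% lower and 34.6% higher in the female-labelled libraries, and the median log2 difference was 0.01.

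All 7 genes were lower in the female-labelled libraries, by 2.33 times (Higd1a) to 17.2 times (Car9) in the ratio of group means. All 7 passed the test in that direction (limma adjusted p from 9.57e-08 to 4.17e-05) and 0 were higher, against the 34.6% of all tested genes that were called lower. Car9 met the minimum of 1 in at least 3 libraries only through the male-labelled ones. With at least 1 required in every library, the other 6 were tested and all 6 were lower. In all 7, each male library was above each female library, which was so for 37.0% of all tested genes. No gene was higher under edgeR or DESeq2 on the recovered reads either, nor at an unadjusted p under 0.05. Summed, the 7 genes stood at 3648 to 3926 in the male-labelled libraries and 455 to 554 in the female-labelled ones. Their median log2 difference was -2.82, set beside 0.01 for all tested genes, of which the lowest 5% lay under -1.78.

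**Figure D1:**
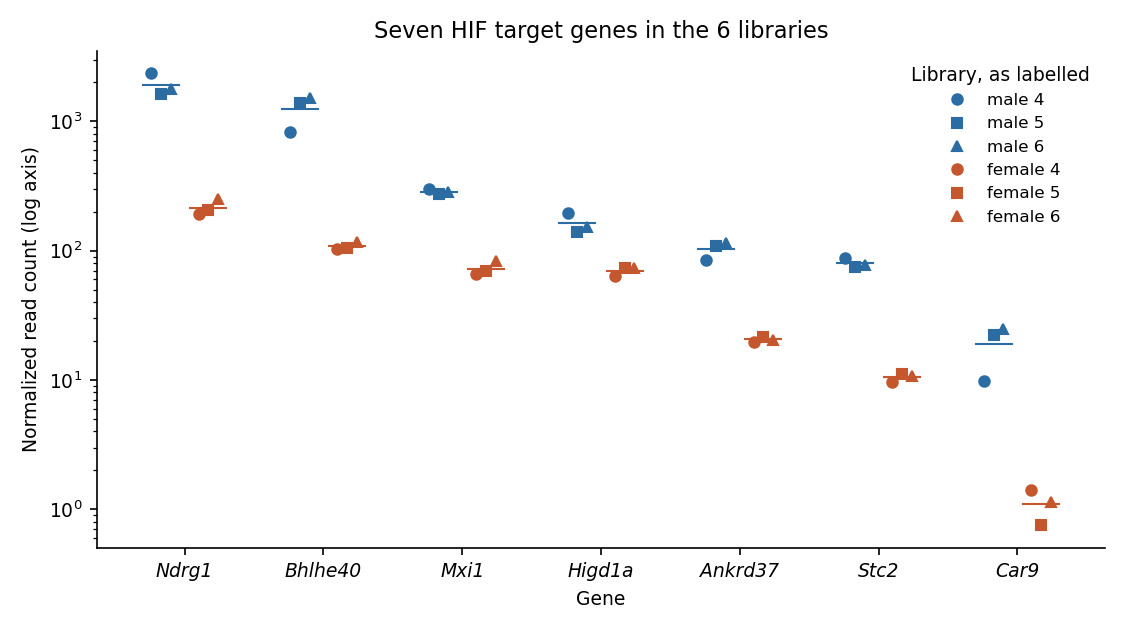
Normalized read count (log axis) of each gene in each library; blue symbols are male-labelled libraries, orange the female-labelled ones, the symbol shape gives the replicate number and the horizontal lines are group means (n = 3). For every gene the 3 male values lie above the 3 female values, and male 4 is the lowest male library for Car9, Bhlhe40 and Ankrd37 and the highest for the other 4.

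Car9 (chromosome 4) encodes a membrane carbonic anhydrase whose catalytic part faces outward, where it hydrates carbon dioxide and helps cells export acid. Its normalized read count was 9.87, 22.2 and 24.7 in male 4, 5 and 6, and 1.41, 0.751 and 1.14 in female 4, 5 and 6. The lowest male library was thus still 6.99 times the highest female one, although male 4 was well under the other male libraries. The female values rest on 34, 17 and 24 reads, the male values on 238 to 699. The log2 difference was -3.16 (SE 0.30, limma adjusted p 3.04e-05). This scale adds 1 to each value and shrinks the change of a gene this low. With 0.1 added instead, the difference was -3.92, and edgeR on the reads gave -4.10. Car9 passed the filter on low values (at least 1 in at least 3 libraries) through the male libraries, since 2 of the female libraries reached 1, whereas the other 6 genes were above 1 in every library.

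Among lactate and bicarbonate transporters, Slc16a3, the lactate exporter MCT4, differed by -1.94 on the log2 scale, and its chaperone Bsg (basigin) by -1.48. Slc16a1 (MCT1) differed by -1.14. The bicarbonate transporters were higher in the female-labelled libraries, with log2 differences of 1.13 for Slc4a4, 1.12 for Slc4a2 and 0.23 for Slc4a7. Among carbonic anhydrases, 9 genes were in the table, 8 were tested and 7 of these, Car9 included, were lower, beside 34.6% of all tested genes. Of the 7, Car9, Car2, Car3 and Car11 would not have passed the filter without the male-labelled libraries, so this count is no measure of the family. Car12, the other membrane enzyme known as a HIF target, was at 7.34 ± 0.411 in the male-labelled libraries and 8.19 ± 0.422 in the female-labelled ones (SD, n = 3) and did not pass the test (limma adjusted p 0.230). The cytosolic enzymes Car2 (-2.91), Car3 (-4.22) and Car13 (-0.78), the mitochondrial Car5b (-0.88) and the catalytically inactive Car8 (-1.36) were lower on the log2 scale. Car11, also without catalytic activity, was close to the limit of detection in one group, at 1.51 ± 0.123 in the male-labelled libraries and 0.0917 ± 0.0796 in the female-labelled ones (SD, n = 3). Car2 and Car3 were low too, at most 0.442 and 0.475 in the female-labelled libraries, so the added 1 shrinks their differences. Car5a was too low to be tested.

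Bhlhe40 (chromosome 6), also called DEC1, encodes a basic helix-loop-helix repressor that acts on clock and metabolic genes. Its normalized read count was 826, 1389 and 1504 in male 4, 5 and 6, and 103, 105 and 117 in female 4, 5 and 6. Male 4 was again the low male library, and the female libraries lay close together. The log2 difference was -3.46 (SE 0.20, limma adjusted p 1.69e-06), the most negative of the 7 genes on the log2(value + 1) scale, and 91 of the 12568 tested genes had a more negative one. Its paralog Bhlhe41 (DEC2) was lower too, with 118, 170 and 180 in male 4, 5 and 6 and 18.3 to 21.5 in the female-labelled libraries (log2 difference -2.88, limma adjusted p 1.01e-06).

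Mxi1 (chromosome 19) encodes a repressor that pairs with MAX and competes with MYC for E-boxes. Its values were 298, 272 and 286 in male 4, 5 and 6, and 65.8, 69.3 and 82.8 in female 4, 5 and 6. The male libraries differed by no more than 1.09 times, so that male 4 did not stand apart here. The log2 difference was -1.97 (SE 0.09, limma adjusted p 4.63e-07). In the network around MAX, 11 of 12 genes in the table were tested, with 6 lower and 3 higher in the female-labelled libraries, beside 34.6% of all tested genes in each direction. The lower ones included 3 further repressors that pair with MAX, Mxd1 (-3.44), Mnt (-2.03) and Mxd3 (-1.25), and by smaller amounts Max itself (-0.34) and Mlx (-0.26). The higher ones were Myc (1.84), Mycl (1.12) and Mlxip (0.42), all as log2 differences. Myc stood at 81.5, 35.5 and 30.6 in male 4, 5 and 6 and from 152 to 172 in the female-labelled libraries, and male 4 was here the male library nearest to them. Mxd4 (0.11, limma adjusted p 0.284) and Mga (0.20, limma adjusted p 0.236) did not pass, and Mycn was too low to be tested.

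Ndrg1 (chromosome 15) encodes a cytoplasmic protein of the NDRG family that is induced by hypoxia and cellular stress. It was the most abundant of the 7, at 2351, 1641 and 1768 in male 4, 5 and 6, and at 191, 205 and 249 in female 4, 5 and 6. Male 4 was the highest library, the reverse of its place for Car9 and Bhlhe40. The log2 difference was -3.14 (SE 0.15, limma adjusted p 5.06e-07), or 8.92 times in the ratio of means. The family divided by member. Ndrg2 (-1.98) and Ndrg3 (-0.61) were lower and Ndrg4 (0.86) was higher in the female-labelled libraries, each past the test. Ndrg4 stood at 26.0 to 31.7 in the male-labelled libraries and 48.0 to 60.6 in the female-labelled ones, with no overlap.

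Ankrd37 (chromosome 8) stood at 84.1, 109 and 114 in male 4, 5 and 6, and at 19.8, 21.7 and 20.4 in female 4, 5 and 6. Male 4 was the lowest male library, and the lowest male value was 3.88 times the highest female value. The log2 difference was -2.24 (SE 0.11, limma adjusted p 7.94e-07).

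Higd1a (chromosome 9) encodes a small protein of the mitochondrial inner membrane that associates with respiratory complexes. Its values were 195, 140 and 153 in male 4, 5 and 6, and 63.6, 73.1 and 73.2 in female 4, 5 and 6. The groups did not overlap, though the gap was the narrowest of the 7, with the lowest male library at 1.91 times the highest female one. The log2 difference was -1.20 (SE 0.12, limma adjusted p 4.17e-05), and 9.46% of all tested genes had a more negative one. Its relative Higd2a, a mitochondrial protein of the same domain family, was at 33.5 ± 1.60 in the male-labelled libraries and 37.3 ± 0.968 in the female-labelled ones (SD, n = 3) and did not pass the test (log2 difference 0.15, limma adjusted p 0.0851). Of the stretches of 50 bases in Higd1a transcripts, 5.02% also occur in other genes, the processed pseudogenes Gm9790 and Gm14925, so its value is uncertain to that extent. For the other 6 genes this share was at most 0.13%.

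Stc2 (chromosome 11) encodes stanniocalcin 2, a secreted glycoprotein that binds and inhibits the protease PAPP-A, which releases insulin-like growth factors from a binding protein. Its values were 87.8, 74.8 and 76.9 in male 4, 5 and 6, and 9.59, 11.1 and 10.6 in female 4, 5 and 6. Both groups were tight, and the log2 difference was -2.82 (SE 0.09, limma adjusted p 9.57e-08), the smallest p of the 7. Stc1, the paralog, was lower as well, at 246 ± 64.8 in the male-labelled libraries and 52.9 ± 7.10 in the female-labelled ones (SD, n = 3), a log2 difference of -2.18 (limma adjusted p 1.02e-05). Pappa, the gene of the protease, was weakly expressed and higher in the female-labelled libraries, at 2.82 to 7.96 against 1.13 to 1.75 (log2 difference 1.27, limma adjusted p 0.00381).

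**Figure D2:**
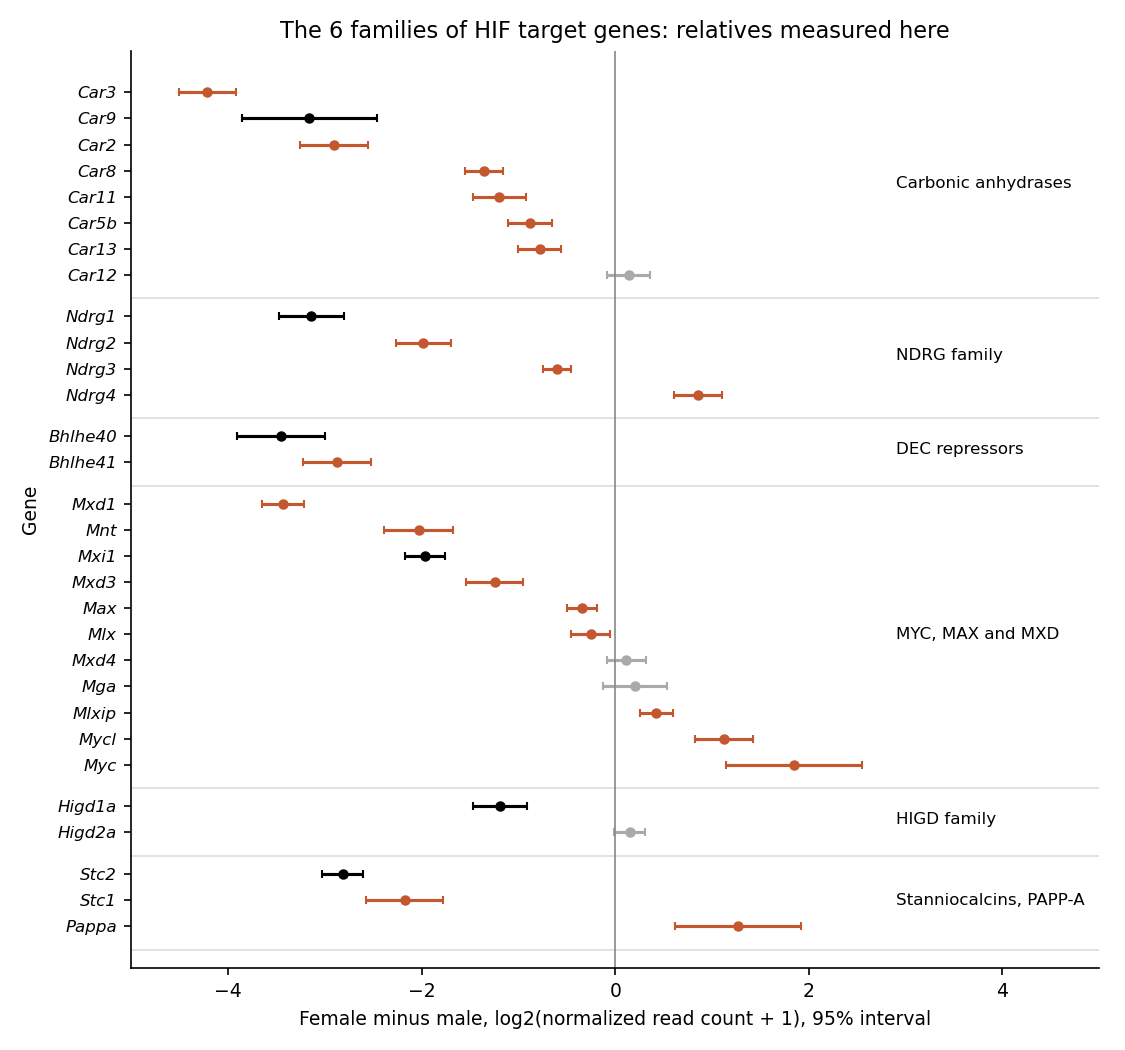
Log2 difference, female minus male, on the log2(normalized read count + 1) scale with its 95% interval from limma, for every tested gene of the 6 families; the 6 dots in black are Car9, Ndrg1, Bhlhe40, Mxi1, Higd1a and Stc2, orange dots passed an adjusted p of 0.05 and grey dots did not. Car12, Mxd4, Mga and Higd2a lie near 0, and Ndrg4, Mlxip, Mycl, Myc and Pappa lie on the female side.

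On the log2(value + 1) scale the 7 differences fell in the order Bhlhe40, Car9, Ndrg1, Stc2, Ankrd37, Mxi1 and Higd1a. The 95% intervals of the first 4 overlap one another, from -3.91 to -3.00 for Bhlhe40 and from -3.03 to -2.61 for Stc2. That of Ankrd37, from -2.50 to -1.98, lies apart from those of Bhlhe40, Ndrg1 and Stc2, meets that of Car9, the widest at -3.86 to -2.47, and overlaps that of Mxi1, from -2.17 to -1.76. That of Higd1a, from -1.47 to -0.92, lies apart from the other 6. The place of Bhlhe40 and Car9 depends on the value added, since with 0.1 Car9 came first at -3.92 and Bhlhe40 stood at -3.47, and on the reads edgeR gave -4.10 and -3.52. The differences between genes were not tested as such.

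**Figure D3:**
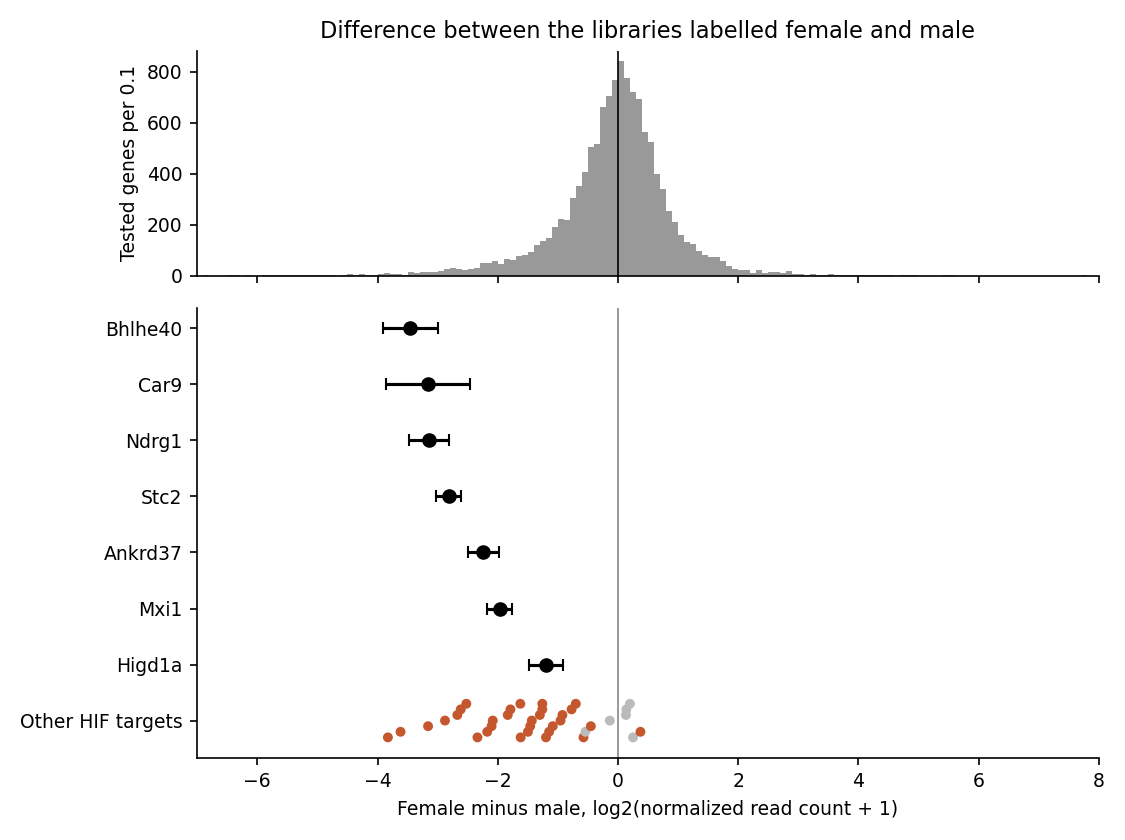
Upper panel, the number of tested genes in each step of 0.1 of the log2 difference, female minus male, on the log2(normalized read count + 1) scale; lower panel, the same difference for the 7 genes with its 95% interval, and in the bottom row 37 other HIF targets, orange where the adjusted p was under 0.05 and grey where not. The 7 genes lie between -3.46 and -1.20, on the left side of a distribution whose median is 0.01.

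Levels between genes were compared per kilobase of the longest coding transcript, as normalized read count per kilobase. In the male-labelled libraries the order was Ndrg1 (665), Bhlhe40 (398), Ankrd37 (110), Higd1a (73.0), Mxi1 (56.6), Stc2 (20.3) and Car9 (9.36), as group means. In the female-labelled libraries it was Ndrg1 (74.5), Bhlhe40 (34.9), Higd1a (31.4), Ankrd37 (22.2), Mxi1 (14.4), Stc2 (2.65) and Car9 (0.544). In both groups neighbours in the order did not overlap over the 3 libraries. Ankrd37 and Higd1a exchanged places, with ranges per kilobase of 90.7 to 122 and 62.7 to 87.5 in the male-labelled libraries, and of 21.3 to 23.4 and 28.5 to 32.8 in the female-labelled ones. Which transcript each library used is not given, so these levels depend on the transcript chosen.

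Within the group labelled male, the 7 genes parted in male 4. Relative to the mean of male 5 and male 6, male 4 held 0.421 times as much Car9, 0.571 times as much Bhlhe40 and 0.757 times as much Ankrd37. It held 1.38 times as much Ndrg1, 1.33 times as much Higd1a, 1.16 times as much Stc2 and 1.07 times as much Mxi1. The same ratio over all tested genes had a median of 0.985 and ran from 0.635 to 1.48 between its 5th and 95th percentiles, so that Car9 and Bhlhe40 lay outside this range and the other 5 genes inside it. Hif1a RNA stood at 1141 in male 4 and 1826 and 1729 in male 5 and 6 (0.642 times), inside this range. Epas1 RNA, which encodes HIF-2alpha, was inside it too, at 529, 479 and 480 (1.10 times). Hif3a RNA, at 62.1, 29.9 and 29.3 (2.10 times), lay above it. Among 37 other HIF targets, male 4 was the lowest male library for 10 and the highest for 26, compared with 45.0% and 40.2% of all tested genes. Those low in male 4 included Adm (0.604 times), Ddit4 (0.579 times), Hilpda (0.597 times) and Sap30 (0.539 times), and those high included Bnip3 (1.40 times), Egln3 (1.36 times) and Ero1l (1.58 times). With 1 library standing apart, this is a description of that library. Without male 4, the log2 differences between the female-labelled and male-labelled libraries were -3.55 for Car9, -3.72 for Bhlhe40, -2.38 for Ankrd37, -2.99 for Ndrg1, -1.06 for Higd1a, -2.75 for Stc2 and -1.93 for Mxi1. All 7 remained past the threshold.

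**Figure D4:**
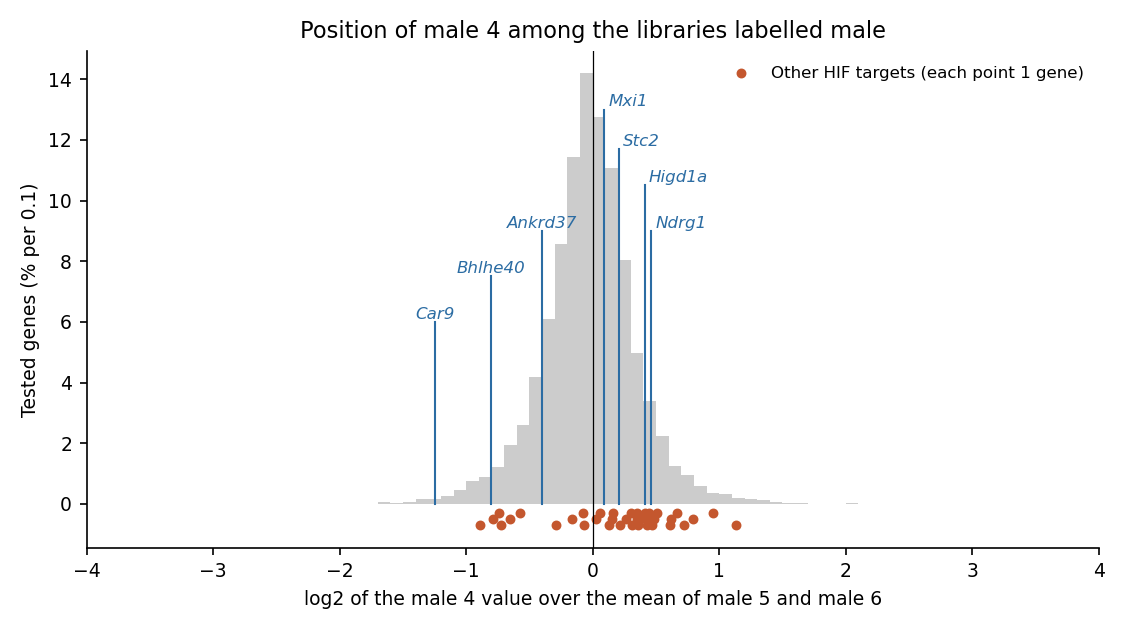
Log2 of the value in male 4 over the mean of male 5 and male 6; grey bars give the percent of tested genes in each step of 0.1, blue lines mark the 7 genes (line height carries no value) and orange dots the 37 other HIF targets (their height carries no value). Car9, Bhlhe40 and Ankrd37 lie left of 0 and Mxi1, Stc2, Higd1a and Ndrg1 right of it.

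For each of the 7 genes, the gene most like it was sought among 8975 others with a mean of at least 10, by the root mean square distance between log2(value + 1) profiles over the 6 libraries, each centred on its mean. Ndrg1 was nearest to Zfp395 (0.054), itself a listed HIF target, and Mxi1 to Epas1 (0.050). Car9 was nearest to Tiparp (0.133), a target of the aryl hydrocarbon receptor, which stood at 394, 809 and 864 in male 4, 5 and 6 and from 74.5 to 78.8 in the female-labelled libraries. The nearest genes to Bhlhe40, Ankrd37, Higd1a and Stc2 were Aqp3 (0.077), Bcor (0.056), Cped1 (0.043) and Emilin1 (0.058). The added 1 shrinks the changes of Car9 and of Aqp3, whose mean was 1.30 in the female-labelled libraries. The matches of Car9 with Tiparp and of Bhlhe40 with Aqp3 therefore depend on the value added. Among the 7 themselves, the closest pairs were Ndrg1 with Stc2 (0.211), Mxi1 with Ankrd37 (0.238) and Car9 with Bhlhe40 (0.240), and the farthest was Bhlhe40 with Higd1a (1.20).

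The list of other HIF targets outside glycolysis and angiogenesis had 37 genes in the table, and all 37 were tested. This list too was chosen with earlier results of these data known, so its counts are descriptive. In the female-labelled libraries 30 (81.1%) were lower and 1 was higher, beside 34.6% of all tested genes in each direction, and the median log2 difference was -1.30. The most negative log2 differences were those of Ddit4 (-3.83), an inhibitor of mTORC1, Selenbp1 (-3.62), a selenium-binding protein, Zfp395 (-3.16), a zinc finger protein, Bhlhe41 (-2.88), Sap30 (-2.67), a subunit of a histone deacetylase complex, and Vhl (-2.62). Ddit4 was at 1170.5 ± 340 in the male-labelled libraries and 78.9 ± 0.660 in the female-labelled ones (SD, n = 3). Selenbp1 was at 355 ± 60.0 and 28.0 ± 4.26 (SD, n = 3). Wsb1, which encodes a ubiquitin ligase subunit, was the 1 gene higher in the female-labelled libraries (0.37, limma adjusted p 0.00224). Without male 4, 31 were lower and 4 higher. In that fit 9113 of all 12187 tested genes were called, and 52.0% of these calls were higher in the female-labelled libraries.

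The genes of the HIF system itself were lower in the main, with 7 of 10 lower and 1 higher, beside 34.6% of all tested genes in each direction. Hif1a (-2.18), Epas1 (-2.02), Hif3a (-0.98), Vhl (-2.62) and the prolyl hydroxylases Egln3 (-2.10) and Egln1 (-0.92) were lower on the log2 scale, and Hif1an (1.16), the asparaginyl hydroxylase that inhibits HIF, was higher. Hif3a was high in male 4, and without that library its difference was -0.63. Egln1, Egln3 and Vhl stand in both lists.

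Markers of cell types moved with the same contrast, in which 34.6% of all tested genes were called in each direction. Of 15 endothelial markers in the table, 13 were tested, with 10 lower and 2 higher in the female-labelled libraries, and their summed level was 2307 to 2423 in the male-labelled libraries and 1266 to 1329 in the female-labelled ones. Over the 6 libraries the most normalized reads fell on Cdh5 (-1.25), Eng (0.40), Emcn (-0.37) and Pecam1 (-2.44), given as log2 differences, while in the male-labelled libraries alone Pecam1 came after Cdh5. Ptprb, a receptor phosphatase of endothelium, was the other marker called higher, at 4.71 ± 0.628 in the male-labelled libraries and 62.3 ± 4.11 in the female-labelled ones (SD, n = 3). Pecam1, the gene of CD31, was at 407 ± 16.2 and 73.9 ± 0.540 (SD, n = 3), and Vwf at 37.9 ± 2.77 and 0.491 ± 0.104 (SD, n = 3). The sum of the 14 mesenchymal markers in the table was 2921 to 3749 and 3514 to 4217, with 10 lower and 4 higher. Without Acta2 and Tagln the sum of the other 12 was 2824 to 3532 and 1100.4 to 1151. Col3a1 (-2.47), Col1a2 (-1.47) and Col1a1 (-0.68), fibrillar collagens, and Pdgfrb (-3.13), a growth factor receptor of mural cells, were among the 10, as log2 differences. The 4 were Acta2 (4.57), Tagln (4.43), Myh11 (5.54) and Des (0.70), contractile or cytoskeletal genes, as log2 differences. Macrophage markers summed to 12.0 to 14.7 and 15.2 to 18.1, with 8 of 10 in the table, 3 tested, 1 lower and 2 higher. C1qa, C1qb and C1qc were at 0 in all 3 female-labelled libraries and each in 2 of the 3 male-labelled ones, with no value above 0.0706. Ptprc was at 0 in all 3 male-labelled libraries and at most 0.332 in the female-labelled ones. Hepatocyte markers summed to 7.71 to 13.5 and 1.95 to 8.05, with 8 of 10 in the table, 2 tested, 1 lower and 1 higher, with Cps1 at 0 in all 3 male-labelled libraries and at most 0.0950 in the female-labelled ones, and Ttr at 0 in all 3 female-labelled libraries and at most 0.191 in the male-labelled ones. Of the markers called lower, Vwf, Robo4, Erg, Lum and Ahsg would not have passed the filter on low values without the male-labelled libraries, nor Apob, called higher, without the female-labelled ones. The part of cell makeup in the differences of the 7 genes was not tested, and in bulk RNA fewer cells of a type and less RNA per cell cannot be told apart.

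In the authors' deposited table all 7 genes have negative fold changes for female against male, from -2.33 for Higd1a to -17.1 for Car9. The largest false discovery rate among them in the authors' deposited table is 0.00258, for Higd1a.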

How the data were processed

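Poly(A) RNA from 6 libraries was measured. Bowtie2, RSEM, edgeR and the build mm39 are named, without roles, in the submitters' processing notes. The 6 deposited signal columns hold normalized read counts. In each column 100% of values were whole multiples (within 0.01 reads) of the smallest value above 0, so that the authors had divided whole reads, possibly rounded RSEM estimates, by 1 factor per library. Dividing by that value gave back the reads. Per the file headers, the deposited score column holds a signed fold change made by the authors, and the deposited p-value columns hold its p and false discovery rate. The rule behind "detectable" genes is not stated, and 0 columns were left without a sample.

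limma 3.58.1 (R 4.3.3, eBayes with trend) was run on log2(value + 1) for genes with at least 1 in at least 3 libraries, with Benjamini-Hochberg adjustment over all 12568 genes and a threshold of 0.05. edgeR 4.0.16 (quasi-likelihood) and DESeq2 1.42.0 on the recovered reads were alternatives. The scripts were tested on simulated data. Chromosomes, transcript lengths and 50-base matches came from GENCODE M21 (GRCm38) by symbol. Since the named build differs, coordinates are given only for RefSeq promoter stretches of GRCm38.p6.

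The 7 genes and all lists were chosen with earlier results of these data known. Named genes were the 7, their family relatives, and from each HIF or transporter list up to 6 of the largest called differences without overlap plus genes called against the majority. Marker lists are given by their sums, and the markers named beyond the most abundant endothelial ones were chosen after their values were seen. Genes named for their place in male 4, and P4ha1, P4ha2, Plod2, Narf and Pim1, were chosen after their values were seen. The labels do not say whether same-numbered libraries are paired, and the main fit treats them as unpaired. Deviations of same-numbered male- and female-labelled libraries correlated at -0.09, -0.03 and -0.17 across genes. Differently numbered libraries were not compared, so these values cannot decide on a pairing. A gene first chosen as a transporter was left out of the list and is not reported here, so no count over the transporters is given.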

Additional observations from a re-analysis of the deposited data

How the results depend on the processing

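All alternatives were planned. The 7 genes gave 97 recomputed log2 differences, and all 97 kept their direction and their side of the threshold. They ran from -4.11 to -2.93 for Car9, -3.72 to -3.29 for Bhlhe40, -3.25 to -2.99 for Ndrg1, -2.94 to -2.75 for Stc2, -2.38 to -2.16 for Ankrd37, -2.06 to -1.90 for Mxi1 and -1.30 to -1.06 for Higd1a. With at least 1 required in every library, Car9 was not tested, which left 6 genes, all 6 lower. The count of all called genes was 8704 and ran from 7373 to 9113, the latter without male 4. The count of other HIF targets that were lower stayed at 30 or 31. The count that were higher was 1, and over the fits that each left out 1 library it ran from 1 to 4, the latter without male 4. The fit with a replicate block called 8314 genes, 8241 of them among the 8704, and no call of the 7 genes changed. Median log2 differences of all genes under TMM and median-ratio factors were -0.0013 and 0.0036. Depth limits Car9 most, at 17 to 34 reads in each female-labelled library.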

Other observations

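Of the 37 other HIF targets, 6 did not pass the test between the male-labelled and female-labelled libraries, while 69.3% of all tested genes passed. P4ha1, P4ha2 and Plod2, which encode enzymes that hydroxylate collagen, were among them. P4ha1 was at 475 ± 62.5 in the male-labelled libraries and 431 ± 16.0 in the female-labelled ones (SD, n = 3, log2 difference -0.13, limma adjusted p 0.224). Plod2 was at 467 ± 231 and 498 ± 11.5 (SD, n = 3, log2 difference 0.20, limma adjusted p 0.528), and P4ha2 at 217 ± 89.2 and 142 ± 5.02 (SD, n = 3, log2 difference -0.54, limma adjusted p 0.0619). In both of these male 4 was the high male library, at 2.20 times the mean of the other male libraries for Plod2 and 1.93 times for P4ha2. Without male 4, Plod2 (0.58), Narf (0.45) and Pim1 (0.26) passed as higher and P4ha2 (-0.23) as lower in the female-labelled libraries, as log2 differences.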
